A study of Mus musculus with 3 samples.

Results

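Integrins and the matrix protein thrombospondin 1 were followed in bone marrow RNA of castrated mice given testosterone, against castrated mice given placebo. The group holds every spot with a value on all 3 arrays that the platform annotation assigns to 1 gene with a symbol beginning Itga or Itgb, plus Thbs1. It has 14 genes on 22 spots, out of 3493 named genes measured on all arrays. These are 8 alpha subunits, 4 beta subunits, the integrin-binding protein gene Itgb1bp1, which the symbol rule takes in, and Thbs1. A further 8 integrin genes of the platform had no spot with a value on all arrays.

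Both mice of a pair were C57BL/6, castrated at 7 weeks of age, and carried a pellet for 4 weeks before collection at 17 weeks. One of them had a testosterone pellet (12.5 mg, released over 60 days) and its matched partner a placebo pellet. RNA came from pulverized long bones, and the labels name the tissue bone marrow. There are 3 pairs, each on 1 two-colour array (T1, T2 and T3), with testosterone in Cy5 on T1 and T3 and in Cy3 on T2.

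Integrins are receptors made of 1 alpha and 1 beta chain that join cells to matrix proteins and to other cells, and that signal through adaptors bound to their short cytoplasmic tails. In bone marrow they hold progenitors and leukocytes to stroma and fibronectin, and the alpha chain that a cell makes is widely used to tell blood cell types apart. Thrombospondin 1 is a secreted glycoprotein of platelet granules and matrix, which binds the receptors Cd36 and Cd47 as well as several integrins.

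A value here is the deposited log ratio, read as the log2 of testosterone over placebo within a pair, so that 0 means equal amounts and a negative value less RNA with testosterone. The direction is likely rather than settled: testosterone is named as the experimental channel, but no source gives the numerator. The base is likewise inferred, from how far the values reach (-3.37 to 4.47). Of 11552 spots, between 6771 (T2) and 9007 (T1) had a value, and the standard deviation over spots was 0.303, 0.497 and 0.332 for the arrays in order. Across the 4944 rows tested (genes, and spots without a single gene), Pearson's r was 0.44 between T1 and T2, 0.52 between T1 and T3 and 0.75 between T2 and T3, as a description of arrays that share the platform. Ratios carry no level, so the labelled tissue could not be checked by how abundant its markers were. In RNA of a whole tissue, fewer cells of a type and less RNA per cell cannot be told apart.

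None of the 14 genes differed between testosterone and placebo by limma with Benjamini-Hochberg adjustment over all rows (adjusted p from 0.0601 to 0.807), where 84 of 4944 rows (1.70%) did, 17 higher (0.344%) and 67 lower (1.36%). An unadjusted p under 0.05 was reached by 2 of the 14 genes, Itga2b and Itga5, against 31.1% of all rows and 903 of the 3493 named genes. The same 2 genes would pass at an adjusted p of 0.10, as would 19.9% of all rows. The same sign on all 3 arrays was shown by 4 genes (28.6%), Itga5 above 0 and Itga2b, Itga6 and Itgb1bp1 below, against 54.7% of all rows. For Itga6 this holds for the average of its spots, which lay on opposite sides of 0 on T3. Of the means, 6 lay above 0 (42.9%) and 8 below, with a median of -0.10. Over the 3493 named genes 37.7% of means lay above 0, with a median of -0.070. With 14 genes, a count of 0 called cannot be told apart from the 1.70% of all rows. The share with the same sign in all pairs was below that of all rows, as a description. All rows include spots without a single gene, and this share was not taken over named genes alone.

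**Figure D1:**
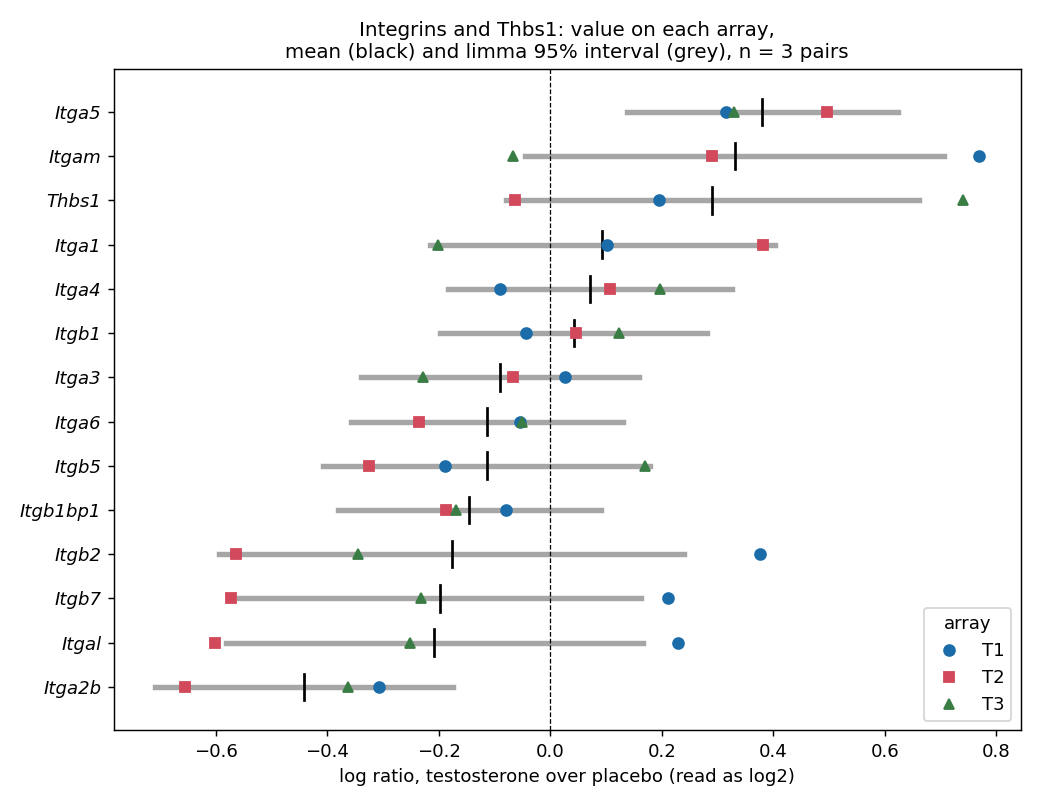
The log ratio of testosterone over placebo (horizontal axis, read as log2) is plotted for each of the 14 genes on T1, T2 and T3, with the mean as a black tick and limma's 95% interval as a grey bar. The bars of Itga5 (0.14 to 0.62) and Itga2b (-0.71 to -0.18) leave out 0, and those of the other 12 genes include it.

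**Figure D2:**
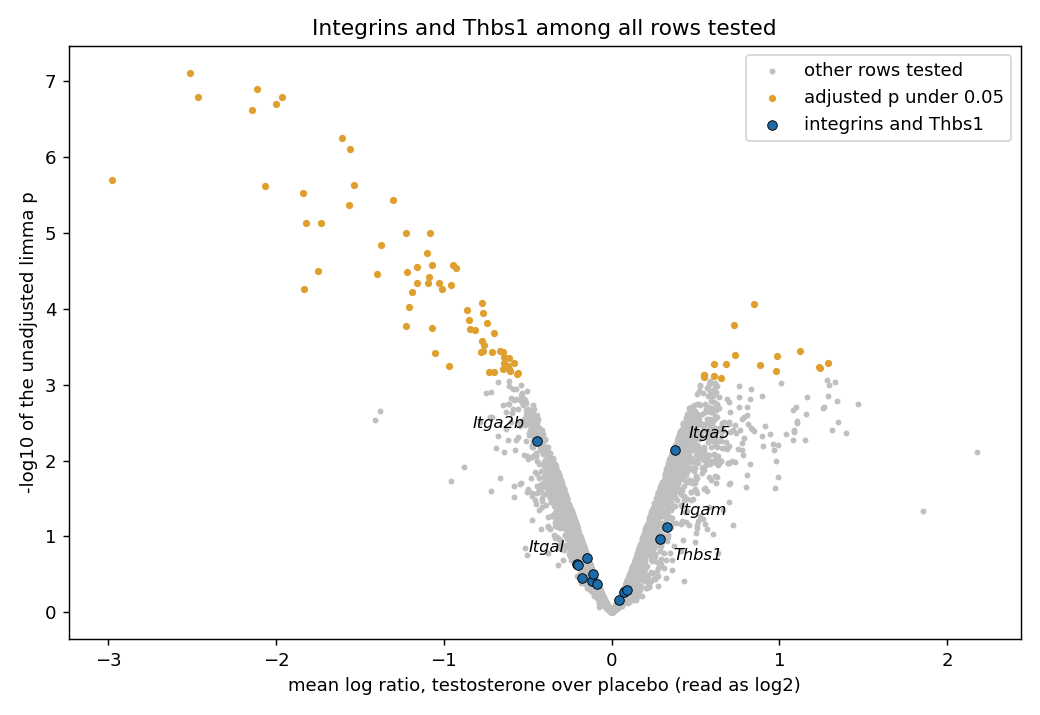
Each point is 1 of the 4944 rows tested, by mean log ratio (horizontal axis, read as log2) and -log10 of the unadjusted limma p (vertical axis). The integrins and Thbs1, in blue, lie between -0.44 and 0.38, below the 84 orange rows that passed an adjusted p of 0.05.

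Itga2b codes for the alpha chain of the fibrinogen receptor of megakaryocytes and platelets. It had the lowest mean of the 14 genes. Its ratio was -0.31 in pair T1, -0.66 in T2 and -0.36 in T3. Testosterone was thus below placebo in every pair, by the widest margin on T2. The mean was -0.44 ± 0.19 (SD, n = 3 pairs; 1.36-fold lower), with a 95% interval from -0.71 to -0.18 and an adjusted p of 0.0601. A second spot of the same clone had no value on T1 and stood at -0.79 on T2 and -0.18 on T3. Without T1 the gene passed (-0.51, adjusted p = 0.0188), in a setting where 19.1% of all rows passed, and with the sign of T2 turned the mean was -0.0053.

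The other megakaryocyte and platelet genes lay closer to 0. Of 20 listed, 5 were measured, and none passed. Their means ran from -0.17 to 0.13, with 2 above 0 and a median of -0.099. P2rx1, a receptor for ATP on platelets, had -0.17 ± 0.15, and the chemokine Pf4 of platelet granules -0.13 ± 0.16. Clec1b, the platelet receptor for podoplanin, had 0.13 ± 0.19. The part of megakaryocyte number in the Itga2b values was not tested.

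Itga5, which pairs with Itgb1 as the classical fibronectin receptor, had the highest mean. Its ratio was 0.32 in pair T1, 0.50 in T2 and 0.33 in T3. All pairs lay above 0 and close together. The mean was 0.38 ± 0.10 (SD, n = 3 pairs; 1.30-fold higher), with a 95% interval from 0.14 to 0.62 and an adjusted p of 0.0652. Both spots of the gene, printed from 1 clone, were above 0 on each array, at 0.18, 0.47 and 0.36 for the first and 0.45, 0.53 and 0.30 for the second. With a dye term the gene passed (0.41, adjusted p = 0.0350), as did Itga2b (-0.50, adjusted p = 0.0220), where 21.1% of all rows passed. Both also passed after centring and scaling (0.40 and -0.41), where 14.2% of all rows did, and with the sign of T2 turned the mean of Itga5 was 0.049.

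Itga2b and Itga5 thus stood at the opposite ends of the group, and their promoters are shown here with that of Itgam, the gene of next highest mean, so that the regulatory sequence can be read beside the ratios. RefSeq promoters on build GRCm38.p6 (250 bases before to 50 after the annotated start) were found for 10 of the 14 genes, in 11 windows. Itga6, Itgal, Itgb2 and Thbs1 were not matched. Exact words were searched on both strands: GAGGAA, the core bound by the myeloid factor PU.1, AGATAA, bound by GATA factors of megakaryocytes and red cells, and AGAACA, the half-site of androgen and glucocorticoid receptors. Capitals mark a match.
Itga2b promoter, chr11:102469834-102470133, minus strand: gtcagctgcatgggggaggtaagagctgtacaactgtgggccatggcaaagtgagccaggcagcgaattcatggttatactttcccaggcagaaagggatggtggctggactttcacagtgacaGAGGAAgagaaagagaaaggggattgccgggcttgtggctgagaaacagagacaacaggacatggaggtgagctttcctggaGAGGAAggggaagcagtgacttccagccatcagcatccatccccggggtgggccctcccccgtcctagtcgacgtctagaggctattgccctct
Itga5 promoter, chr15:103366742-103367041, minus strand: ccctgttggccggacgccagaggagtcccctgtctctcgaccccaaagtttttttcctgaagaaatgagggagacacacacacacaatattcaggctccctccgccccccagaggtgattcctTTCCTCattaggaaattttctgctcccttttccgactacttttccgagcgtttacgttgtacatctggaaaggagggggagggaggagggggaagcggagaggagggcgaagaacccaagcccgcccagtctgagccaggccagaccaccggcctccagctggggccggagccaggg
Itgam promoter, chr7:128062390-128062689, plus strand: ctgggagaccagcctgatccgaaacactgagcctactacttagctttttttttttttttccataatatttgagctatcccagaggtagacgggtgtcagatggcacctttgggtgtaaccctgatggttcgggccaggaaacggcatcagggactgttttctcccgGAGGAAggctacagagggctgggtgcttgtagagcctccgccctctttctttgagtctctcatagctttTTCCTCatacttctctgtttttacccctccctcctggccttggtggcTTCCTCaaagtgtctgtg

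The window of Itga2b held GAGGAA beginning at -126 and -44 from the start, that of Itga5 its reverse TTCCTC at -127, and that of Itgam GAGGAA at -84 and TTCCTC at -15 and 33. The PU.1 word was present in 6 of the 11 windows, and in 28.3% of all 32851 promoter windows of RefSeq. The receptor half-site was found in 2 windows, those of Itgb1 and Itgb7, against 19.0% of all windows, and AGATAA in 0, against 11.2%. A match is a description of the letters and not of binding.

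Itgam, the alpha chain that neutrophils, monocytes and macrophages carry with Itgb2, varied more between pairs. Its ratio was 0.77 in pair T1, 0.29 in T2 and -0.066 in T3. The pairs ran from clearly above 0 to about 0. The mean was 0.33 ± 0.42 (adjusted p = 0.203, 95% interval -0.045 to 0.71), and it was 0.11 without T1 and 0.53 without T3. Its 2 spots of 1 clone agreed on T1 (0.79 and 0.75) and T2 (0.26 and 0.32) and lay on opposite sides of 0 on T3 (0.13 and -0.26).

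Itgb2, the beta chain shared by the leukocyte integrins, had 0.38 on T1, -0.56 on T2 and -0.35 on T3. Itgal, its alpha partner on lymphocytes and other leukocytes, had 0.23, -0.60 and -0.25. Itgb7, which lymphocytes use for homing to the gut, had 0.21, -0.57 and -0.23. These genes of leukocyte adhesion lay above 0 in pair T1 and below it in T2 and T3, and their means of -0.18 ± 0.49, -0.21 ± 0.42 and -0.20 ± 0.39 were smaller than the spread between pairs (adjusted p from 0.407 to 0.525). Each T1 value rests on 1 spot. The duplicate spots of Itgal (-0.794 on T2, -0.197 on T3) and Itgb7 (-1.075 and -0.065) had no value on T1. Without T1, Itgb2 (-0.45, adjusted p = 0.0338) and Itgal (-0.43, adjusted p = 0.0494) passed, where 19.1% of all rows did, and Itgb7 did not (-0.40, adjusted p = 0.0637). Without T2 the same means were near 0, at 0.016 for Itgb2, -0.011 for Itgal and -0.010 for Itgb7, and without T3 they were -0.093, -0.19 and -0.18 in the same order.

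By the average of its spots, Itgam lay above its partner Itgb2 in each pair, by 0.39, 0.85 and 0.28. It lay above Itgal by 0.54, 0.89 and 0.19. On T3 the 2 Itgam spots stood at 0.125 and -0.257. The lower one was above Itgb2 (-0.345) but not above Itgal (-0.251). Itgal differed from Itgb2 by no more than 0.15 in any pair (-0.15, -0.039 and 0.094). With 3 pairs, an exact two-sided sign-flip test of such a difference cannot go below p = 0.25, so none is reported as a test. Itga4, which pairs with Itgb1 or Itgb7 in progenitor and lymphocyte adhesion to Vcam1, had -0.091, 0.11 and 0.20 (mean 0.071 ± 0.15, adjusted p = 0.684). It stood on the other side of 0 from Itgb7 on every array.

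Markers of the cells that carry these integrins are given beside them. Of 7 measured B-lineage genes, 6 fell on all arrays, Bach2, Blk, Cd79b, Il7r, Pou2af1 and Vpreb3, with list medians of -2.14, -2.24 and -1.65 for T1, T2 and T3. Cd79b, part of the antigen receptor of B cells, fell by 2.11 ± 0.14 (adjusted p = 0.000197). Itgal and Itgb7, which lymphocytes carry, were above 0 on T1 alone, and no listed T or NK cell gene was measured on all arrays. None of 5 neutrophil genes passed, and their medians were 0.58, 0.024 and -0.15 in the same order. Itgam was highest on T1 as well. The median over all rows was also highest on T1 (0.0015, -0.045 and -0.02 for T1, T2 and T3). So was the median of 9 of the 15 fixed lists with measured genes. These lists overlap, with Mmp9 in more than 1 of them. Mmp8, a collagenase of neutrophil granules, had 0.60, 0.11 and -0.032, Prtn3, a granule protease, 0.27, 0.19 and -0.33, and Mmp9, a gelatinase, 0.68, -0.73 and -0.15. None of 8 monocyte and macrophage genes passed (medians 0.25, 0.11 and 0.14), with the efferocytosis receptor Mertk at 0.33 ± 0.085, the scavenger receptor Cd163 at 0.33 ± 0.18 and Aif1 at 0.25 ± 0.099. The part of cell numbers in the integrin values was not tested.

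**Figure D3:**
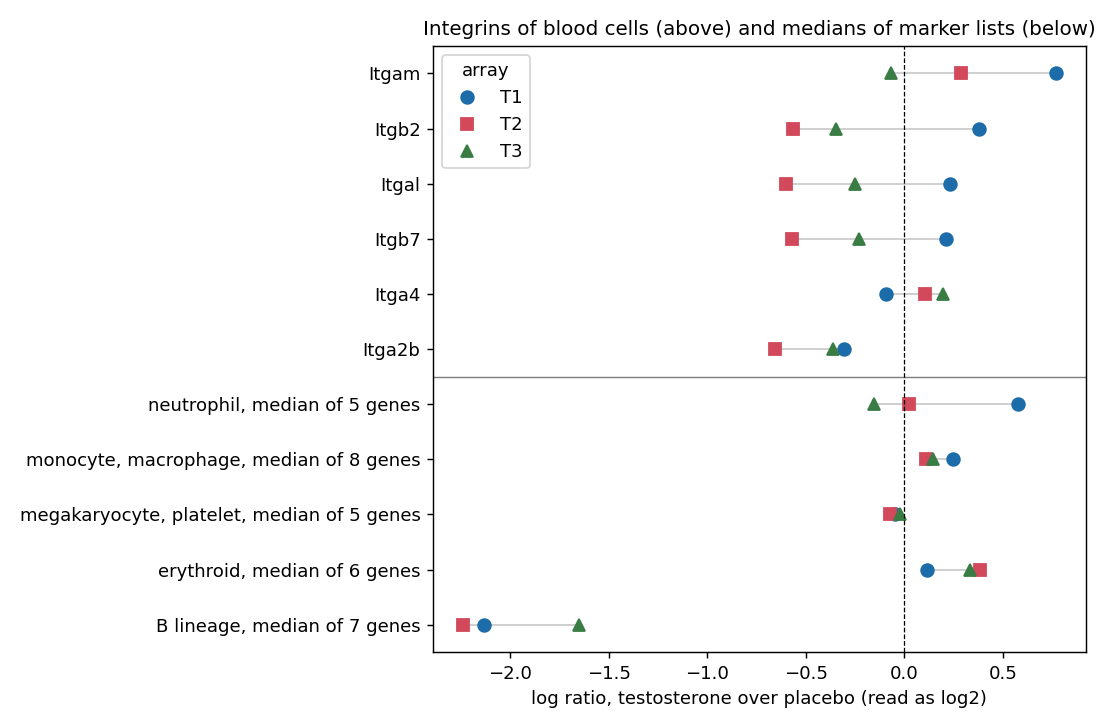
The log ratio of testosterone over placebo (horizontal axis, read as log2) on each array is plotted for 6 integrins of blood cells, above the line, and as the median of 5 marker lists, below it. Itgb2, Itgal and Itgb7 lie above 0 on T1 alone, Itgam and the neutrophil list are highest on T1, and the B-lineage list lies between -2.24 and -1.65.

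Among receptors for collagen and laminin, ratios were small. Itga1, a collagen receptor chain, had 0.10, 0.38 and -0.20 (mean 0.094 ± 0.29). Itga3, a laminin receptor chain, had 0.026, -0.067 and -0.23 (-0.090 ± 0.13). Itga6, a laminin receptor chain found on stem cells and platelets, had -0.055, -0.24 and -0.051 (-0.11 ± 0.11). Of these 3 genes Itga6 alone had the same sign in every pair. This holds for the average of its 2 spots of 1 clone, which stood at -0.179 and 0.078 on T3. Their 95% intervals included 0 and reached at most 0.40 from it (adjusted p from 0.486 to 0.657).

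Itgb1, the beta chain with the most partners, had the mean closest to 0, at 0.042 ± 0.084 (-0.044, 0.046 and 0.12; 95% interval -0.20 to 0.28). This average joined 4 spots from different clones that did not run together. On T2 the spots stood at -0.28, -0.033, 0.73 and -0.24, and on T1 at 0.25, -0.012, -0.48 and 0.060. The spot highest on T2 and lowest on T1 carries a genomic clone accession in the annotation, and the others carry accessions of other clones. Itgb5, a vitronectin receptor chain, had -0.19, -0.33 and 0.17 (mean -0.11 ± 0.26), and Itgb1bp1, which binds the tail of Itgb1, had -0.079, -0.19 and -0.17 (-0.15 ± 0.058, adjusted p = 0.360). Itgb1bp1 was below 0 in all pairs, with a 95% interval of -0.38 to 0.091 that includes 0.

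**Figure D4:**
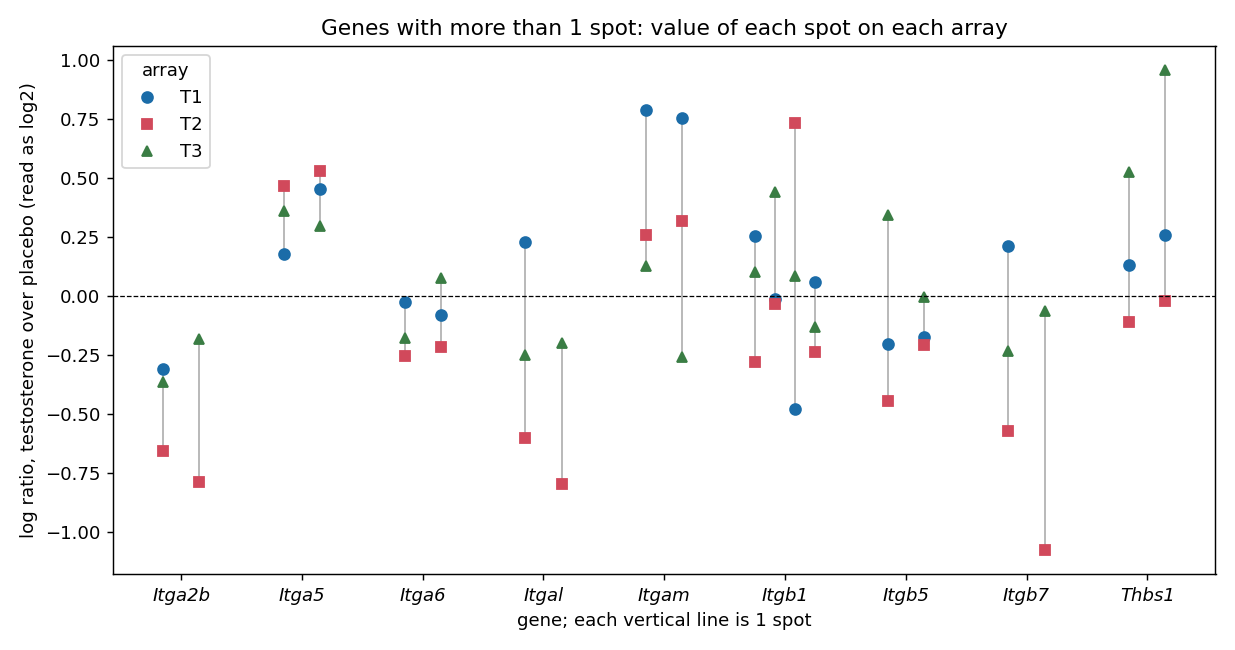
Each vertical line is 1 spot of a gene with more than 1 spot, and the points on it are the log ratios (vertical axis, read as log2) on T1, T2 and T3. The spots of Itga5 all lie above 0 and those of Itga2b below, while the 4 spots of Itgb1 spread from -0.48 to 0.73.

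Spots of 1 accession printed 192 positions apart allow a look at error within an array. Over all such pairs on the platform the median absolute difference was 0.061 for T1 (434 pairs), 0.10 for T2 (381) and 0.11 for T3 (408). For the integrins and Thbs1 it was 0.092 (6 pairs), 0.11 (8) and 0.26 (9). These medians are over different pairs. Of the 5 pairs with values on all arrays, 4 lay furthest apart on T3 (Itga6, Itgam, Itgb5 and Thbs1) and 1 on T1 (Itga5, 0.28 against 0.063 on T3). The widest pair of all was Itgb7 on T2 (0.50, against 0.17 on T3), and Itgal was 0.19 apart on T2 and 0.054 on T3.

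Thbs1 had 0.20 on T1, -0.064 on T2 and 0.74 on T3. T3 stood apart as high. The mean was 0.29 ± 0.41 (95% interval -0.080 to 0.66, adjusted p = 0.251), and it was 0.066 without T3 and 0.47 without T2. Its duplicate spots had 0.52 and 0.96 on T3. None of the 5 measured partners and relatives of Thbs1, of 16 listed, passed. They were Lrp1, a receptor that clears thrombospondin (0.11 ± 0.041), Calr, a chaperone that joins it at the surface (-0.11 ± 0.14), Cd47 (-0.060 ± 0.26), Mmp9 and the related Thbs2 (-0.037). Cd36 was not measured on all arrays.

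The 8 integrin genes outside the tests were Itga7 and Itgax and Itgb6, with 2 arrays at their fullest spot, Itga8, Itgae and Itgb4 with 1, and Itga9 and Itgb8 with 0. Itga7, a laminin receptor chain of muscle, had -1.61 on T2 and -0.21 on T3, the lowest value of any integrin spot. The skeletal muscle list had medians of -0.032, -0.82 and -0.45 for T1, T2 and T3, with none of 5 genes passing. The part of muscle in the Itga7 values, from 1 spot without a value on T1, was not tested. Itgax, the chain of dendritic cells, had 0.24 on T1 and -0.033 on T2. No gene of the list of T and NK cells was measured on all arrays, so lymphocytes other than B cells have no marker here.

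Genes that act with integrins were described from fixed lists. Of 17 measured adaptors and signalling proteins (51 listed), 1 fell, 0 rose and 16 did not pass, with a median of -0.068. The gene that fell was Csk, the kinase that restrains Src-family kinases, at -0.77, -0.80 and -0.75 on the arrays. Its pairs were nearly identical (mean -0.77 ± 0.028, 1.71-fold lower, adjusted p = 0.0115). The call was lost when T3 was left out although the mean stayed as low (-0.79, adjusted p = 0.239), where 0.485% of all rows passed. Csk passed without T1 (adjusted p = 0.00064), where 19.1% of all rows did, and without T2 (adjusted p = 0.0409), where 0.951% did. Fermt3, the kindlin that activates integrins in blood cells, had 0.054, -0.31 and -0.38, and Parvg, the parvin of blood cells, 0.14, -0.59 and -0.23. These adaptors of blood cells were picked out after their values were seen. Values above 0 on T1 and below it on T2 and T3 were found in 9 of the 17 adaptors (52.9%). Itgb2 and Itgal showed the same signs. The pattern was shown by 4 of the 14 integrins and Thbs1 (28.6%), by 12.5% of all rows and by 14.1% of named genes. Its cause was not tested.

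Of 14 measured matrix ligands (43 listed), 1 fell, 0 rose and 13 did not pass, with a median of -0.092. Col6a1, a chain of collagen VI, fell by 0.81 ± 0.22 (1.76-fold lower, adjusted p = 0.0202), with -0.58, -1.01 and -0.86 on the arrays. It did not pass when T2 (-0.72, adjusted p = 0.0712) or T3 (-0.79, adjusted p = 0.274) was left out, where 0.951% and 0.485% of all rows passed. Without T1 it passed (-0.93, adjusted p = 9.7e-05), where 19.1% of all rows did. Fn1, fibronectin, the ligand of Itga5, had 0.30, -0.50 and 0.048. The matrix signalling protein Ccn2, singled out after its values were seen, had 0.28, 1.44 and 2.47 (1.40 ± 1.09, adjusted p = 0.0575). Of 5 ligands on cell surfaces (15 listed) none passed, and their median was 0.21. Cdh1, a cadherin that binds Itgae, had 0.44, 0.46 and 0.33 (adjusted p = 0.0575), F11r, a junctional ligand of Itgal, 0.28, 0.76 and 0.28 (adjusted p = 0.0734), and Icam4, a red cell ligand, 0.014, 0.25 and 0.36 (adjusted p = 0.247). Vcam1, the ligand of Itga4, had -0.019, 0.23 and 0.12. Among 8 tetraspanins and other adhesion genes (19 listed) none passed (median 0.012), with the tetraspanin Cd81 at -0.25 ± 0.092, the tetraspanin Cd63 at -0.19 ± 0.29 and the adhesion molecule Alcam at 0.14 ± 0.011.

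In the lists for red cells and the cells of bone, 2 of 24 measured genes passed (8.33%, against 1.70% of all rows), both of them stromal. These lists were chosen with earlier results of these data known, so the share is not read as an excess. None of 6 erythroid (median 0.31), 3 osteoblast (-0.32), 3 osteoclast (0.095) or 3 endothelial genes (-0.033) passed. Of 9 stromal genes (median -0.087) 1 rose, Grem1 (0.88 ± 0.38), and 1 fell, Igfbp5 (-1.57 ± 0.29). Grem1 did not pass without T2 (0.74, adjusted p = 0.128), without T3 (0.81, adjusted p = 0.274) or after median centring (0.90, adjusted p = 0.0604). In these settings 0.951%, 0.485% and 1.17% of all rows passed. Without T1 Grem1 passed (1.10, adjusted p = 1.2e-05), where 19.1% of all rows did.

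The genes whose 3 ratios were most like those of a member were found by Euclidean distance over the 3 arrays, among the 3492 other named genes. Nearest to Itga2b were Smarcc1 (distance 0.039), Marcksl1 (0.077), Emg1 (0.080), Zfp263 (0.093) and Hdac10 (0.093). For Thbs1 they were Noct (0.13), Tut7 (0.15), Serpinb6a (0.19), Tab3 (0.24) and Prkaa1 (0.26). For Itgb2, which was added after its values were seen, they were Casp4 (0.10), Ncf4 (0.11), Trim12a (0.13), Rgs19 (0.13) and Tmed3 (0.13), with Itgal at rank 9 and Itgb7 at rank 15. With 3 arrays, such likeness is a description of these pairs only.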

How the data were processed

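The deposited values are log ratios, 1 per spot and array of a two-colour spotted platform, read here as log2. What the sources used here do not give is their base, numerator, scaling, background correction or scanner. All changes are relative to the average spot, since the authors' column medians lie near 0 (0.007, -0.062 and -0.025). Spot brightness was not analysed here.

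Genes were named from spots with 1 annotated gene (8050 of 11552 spots, 672 having several and 2830 none), updated through Entrez IDs and RefSeq's GRCm38.p6 gene table (7880 matched). The 66 control or non-mouse spots were left out. Spots of 1 gene with values on all 3 arrays were averaged per array, and the mean was compared with 0 by limma (version 3.58.1, under R 4.3.3; functions lmFit and eBayes). P-values were two-sided, were adjusted by Benjamini-Hochberg over 4944 rows, and were called under 0.05. The procedure was tested on simulated data. Each array is a separate mouse pair, and 3 pairs limit the precision (median standard error 0.112).

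Every member was named, with the passing genes of each list or else its 3 of smallest p where the list bears on a member. The members and lists were chosen with earlier results of these data known. Alternatives were natural logs, single spots, a threshold of 0.10, median centring with and without scaling, a dye term, robust eBayes, the sign of T2 turned, each array left out, rows with at least 2 arrays, and integrin subunits with Thbs1 alone.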

Additional observations from a re-analysis of the deposited data

How the results depend on the processing

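No integrin and not Thbs1 passed as deposited, and this count of 0 held with median centring, values on at least 2 arrays, robust eBayes and single spots. With the sign of T2 turned it could not differ, since 0 of all rows passed. For integrin subunits with Thbs1 alone, the same fit without Itgb1bp1, it could not differ either. It was 2 with a dye term, 2 with centring and scaling and 2 at a threshold of 0.10, each time Itga2b and Itga5, and 0 to 3 with an array left out, the 3 being without T1. The count over all rows was 84 as deposited, 0 with T2 turned (18 at an unadjusted p under 0.05), 1044 with a dye term, 703 with centring and scaling, 986 at a threshold of 0.10, 171 for single spots, and 24 to 944 with an array left out. The share of called rows that were higher was 20.2% as deposited, 8.62% after median centring and 70.7% after centring and scaling.

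As deposited, T2 correlated positively over all rows with T1 (Pearson's r 0.44) and T3 (0.75), and turning its sign makes both negative. With T2 turned, the mean changed sign for Itga1 (-0.16), Itga4 (-0.00033), Itga6 (0.044), Itgal (0.19), Itgb2 (0.20), Itgb5 (0.10) and Itgb7 (0.18). Over the arrays left out, Itga1 ran from -0.051 to 0.24 and Itgb2 from -0.45 to 0.016, and 1 spot of Itgb1 stood at -0.10. Of 162 member values under these settings, leaving aside the threshold of 0.10, 145 kept sign and call. The 145 include 14 natural-log values, which could not change either. They also include single spots of the 8 genes with 1 complete spot, which repeat the main mean. The count is therefore no measure of stability. The cause of these shifts was not tested. Read as natural logs, every fold would be larger. Each value already is a ratio within a pair, so the test of the mean ratio against 0 is itself the paired comparison, of 1 group.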
